A study of Mus musculus with 34 samples.

Results

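The genes described are 38 of the 39 Hox genes of mouse, taken by symbol (Hoxa, Hoxb, Hoxc or Hoxd followed by a number) from a table of 24103 gene entries. The 38 fall into 10 genes of the HoxA cluster, 10 of HoxB, 9 of HoxC and 9 of HoxD. The number in a symbol is the paralog number: genes of the same number in different clusters descend from one ancestral gene. RNA was sequenced from 34 libraries in 9 groups. The course started from the embryonic stem cell line CBMS1 (strain CBA/MsM), grown in 2i/LIF medium (ESC day 0, n = 3 libraries). Its cells became epiblast-like cells (EpiLC day 2, n = 5), which were aggregated, 2000 a well, as embryoid bodies (EB) in GK15 medium to which no factor was added (EB days 3, 4, 5 and 6, n = 3 each; EB day 7, n = 5). A comparable regime leads towards neurectoderm. Epiblast stem cells of strain C57BL6 (EpiSC, female, n = 3) were kept in Activin/FGF medium and, by their titles, on fibroblasts. Embryonic fibroblasts (MEF, n = 6) came from 12.5-day-old embryos of C57BL6 mice, in serum, as 2 cultures each sampled at passages 0, 1 and 2. Strain and medium differ together with cell type between the course and the other groups, so their parts cannot be told apart, and the labels do not say from which region of the embryo the fibroblasts were taken. The libraries come from 2 sequencing projects, A and B. All ESC and MEF libraries belong to project A and all EpiSC libraries to project B, while the course groups from day 2 on hold both. MEF against EpiSC therefore compares projects too, and ESC against EpiLC does so in part.

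Hox genes encode homeodomain transcription factors that give cells of the body axis and the limbs their position. Within a cluster the genes stand in order of paralog number, and in the embryo low-numbered genes are switched on earlier and reach further towards the head than high-numbered ones, which mark the tail and the ends of the limbs. Retinoic acid, Wnt and FGF signals and the Cdx factors switch Hox genes on, Polycomb complexes keep them silent elsewhere, and Hox proteins bind DNA together with Pbx and Meis proteins. In the neural tube no Hox gene is active in the forebrain and midbrain, the first paralogs mark the hindbrain, and later ones the spinal cord.

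On mm9, the build of the deposited table, the HoxA genes described lie at chr6:52112416-52210874, HoxB at chr11:96055675-96229567, HoxC at chr15:102751562-102867283 and HoxD at chr2:74506367-74603199. Levels are FPKM, fragment counts scaled by transcript length and sequencing depth, so that levels can be compared between genes. A gene is called on in a group where every library has at least 1 FPKM. Differences are on the scale of log2(FPKM + 1) and come from limma fits over all genes. Called means a Benjamini-Hochberg adjusted p under 0.05 over all genes and a difference of at least 1. The p-values measure the spread between libraries, which the labels call biological replicates without saying that they are separate cultures. RNA of a bulk sample cannot tell fewer expressing cells from less RNA per cell.

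Single markers of the labels were present: Pou5f1 averaged 1235 FPKM in ESC and 721 in EpiSC, Sox1 16.6 at day 7, and Col1a1 4175 in MEF. Day 7 libraries were mixed by their markers. Their 8 neural progenitor genes summed to 246 to 356 FPKM, against 79.0 to 94.7 in EpiLC and 231 to 257 in ESC. At day 7 the sum of 6 endoderm genes was 79.0 to 110 FPKM, and that of 7 primitive streak and mesoderm genes 96.0 to 150. For 9 of 25 course libraries, 1 label field gives a stage that differs from the one in title and source name, and the latter was used. Libraries of a group correlated at r between 0.960 and 0.990 over all genes. Library dates in the titles place 20 libraries of days 2 to 7 in 4 culture courses, numbered 1 to 4 here. The courses are read from consecutive dates, and the labels do not say that the libraries of a course come from 1 culture. Of the 38 Hox genes, 10 overlap another entry of the table on the genome, among them Hoxa3 with Hoxa4, Hoxa5 and Hoxa6, Hoxd3 with Hoxd4, Hoxb5 and Hoxb6 with the antisense gene Hoxb5os, and Hoxa11 with Hoxa11os. Whether the strand was used in counting is not given in the sources used here, so how reads were divided within these pairs is uncertain.

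The summed Hox level was low in EpiLC, at day 3 and in EpiSC, more genes came on between days 3 and 7, none of them of numbers 10 to 13, and fibroblasts had most genes of every cluster on. The number of genes on was 7 in ESC, 1 in EpiLC, 1, 2, 9, 13 and 14 at days 3 to 7, 0 in EpiSC and 32 in MEF. The summed level of the 38 genes ran from 31.3 to 34.2 FPKM in ESC, 2.97 to 5.38 in EpiLC, 5.09 to 5.58 at day 3, 4.23 to 16.6 at day 4, 83.2 to 146 at day 5 and 146 to 353 at day 7. It was 3.47 to 8.08 in EpiSC and 246 to 287 in MEF. The mean paralog number, each gene weighted by its FPKM, was 1.95 to 2.85 at day 4 and 2.83 to 4.08 at day 7, against 8.70 to 9.19 in MEF. Fibroblasts and day 7 aggregates thus held sums of overlapping size from different ends of the clusters.

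**Figure D1:**
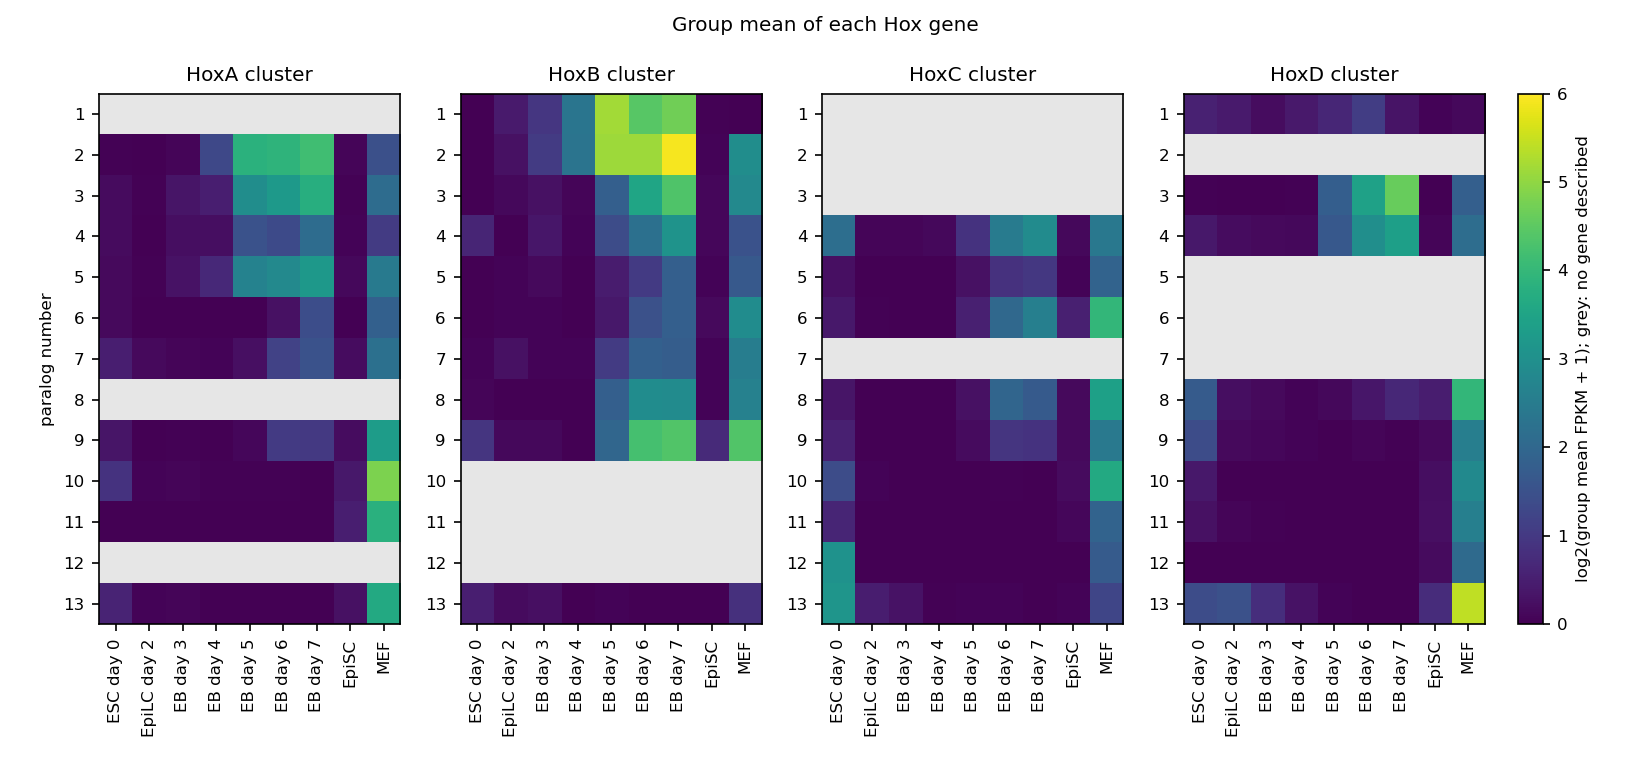
Group means of the 38 Hox genes as log2(FPKM + 1), one panel per cluster, with paralog number down the side and the 9 groups across; grey marks paralog numbers with no gene described in a cluster. From day 3 to day 7 colour appears at the low numbers of HoxA, HoxB and HoxD. Numbers 10 to 13 are coloured mainly in MEF, for HoxC in ESC, and for Hoxd13 in ESC and EpiLC.

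Stem cells at day 0 carried a different and lower set, weighted towards the tail end of HoxC. HoxC supplied 63.7% to 68.4% of their summed Hox level, and no HoxA or HoxB gene was on. The 7 genes on were Hoxc4, Hoxc10, Hoxc12, Hoxc13, Hoxd8, Hoxd9 and Hoxd13. Hoxc13, known for its need in hair and nails, lay at 7.83, 7.51 and 7.92 FPKM. Hoxc12 lay at 4.28, 8.87 and 8.67 FPKM, and Hoxc4, a gene of the neck region, at 4.00, 2.55 and 3.89. All 3 genes stood above every EpiLC library.

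Between day 0 and day 2 the called Hox genes were all lower. Of 38 genes, 29 passed the filter on low values, 6 were called lower and 0 higher, where 17.4% of all genes tested were called, 8% higher and 9.44% lower. Of the 6, Hoxc10, Hoxc12, Hoxc13, Hoxd8 and Hoxd9 passed the filter only through the ESC libraries, where they are high, so their count is a description. Hoxc13 lay between 0.204 and 0.509 FPKM in EpiLC, a difference of -2.66 (SE 0.10). Hoxc12 was listed at 0 in all 5 EpiLC libraries and in every library of days 3 to 7. Hoxc4 fell by 2.08 (SE 0.33, limma adjusted p = 8.9e-06), from 3.48 ± 0.807 FPKM (SD, n = 3) to 0.0527 ± 0.0800 (n = 5). With a pseudocount of 0.1 FPKM in place of 1 the number called was 14, 12 lower and 2 higher, and with a filter at 5 FPKM it was 2.

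Hoxd13, which patterns digits and the genital tubercle, was the exception that stayed on at day 2. It lay at 1.32, 1.88 and 1.63 FPKM in ESC and at 1.75, 1.11, 1.95, 1.84 and 2.42 in EpiLC, and these ranges overlap. It then lay at 1.02, 0.670 and 0.441 FPKM at day 3 and was listed at 0 in all libraries of days 6 and 7. It was the 1 Hox gene called lower between days 2 and 7 (limma adjusted p = 2.6e-11).

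**Figure D2:**
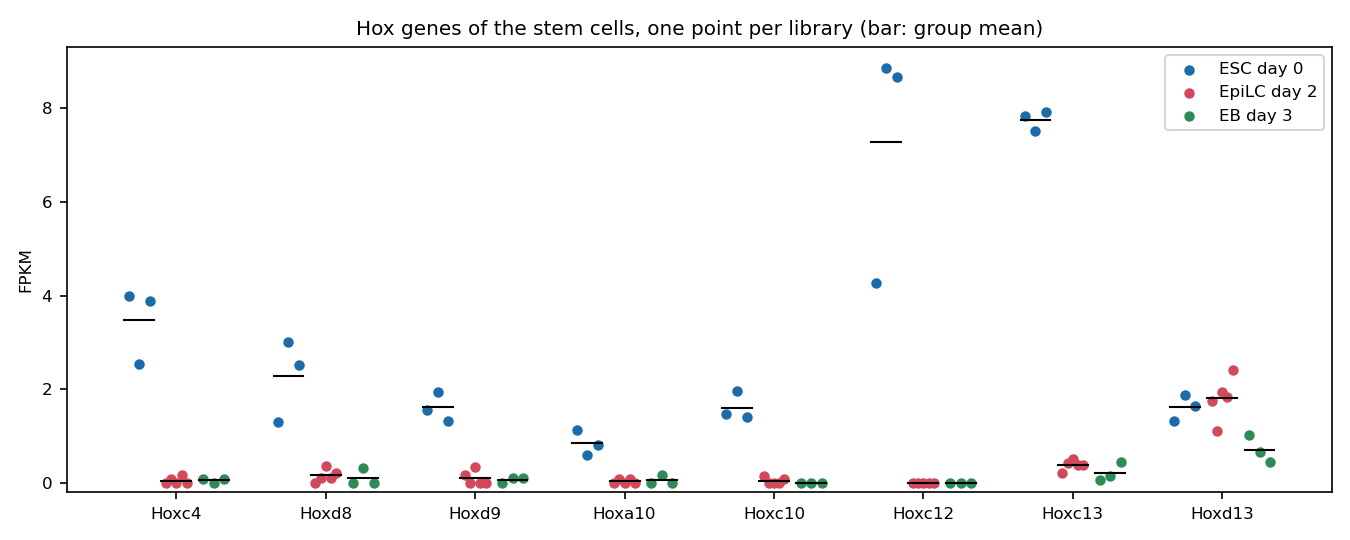
FPKM of 8 Hox genes in each library of ESC day 0, EpiLC day 2 and EB day 3, with bars at the group means. Hoxc12 and Hoxc13 reach 8.87 and 7.92 FPKM in ESC and lie near 0 in EpiLC, whereas the ESC and EpiLC points of Hoxd13 overlap.

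Hoxb1, Hoxb2 and Hoxa2 were the first genes called higher in the aggregates. Hoxb1, which retinoic acid switches on directly and which lays out the hindbrain, and Hoxb2, a gene of hindbrain segments, were on by day 4. From day 2 to day 3, 0 of the 38 Hox genes were called by limma, where 1.93% of all genes tested were called, 0.942% higher and 0.985% lower. Every Hox gene but Hoxb2 and Hoxd13 had a mean below 1 FPKM on both days, where a difference of 1 cannot be reached. Of the 29 tested, 2 had an unadjusted p under 0.05. Hoxb2 lay between 0.119 and 0.265 FPKM at day 2 and at 1.02, 1.16 and 1.01 at day 3, without overlap, and its difference of 0.78 (SE 0.24, limma adjusted p = 0.024) was below the minimum of 1. Hoxd13 was lower by a difference of -0.72 (SE 0.14, limma adjusted p = 0.00071), also below that minimum. With a pseudocount of 0.1 FPKM 5 Hox genes were called in this step, 4 higher and 1 lower.

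From day 3 to day 4, 3 Hox genes were called, all higher: Hoxa2, Hoxb1 and Hoxb2. All 3 passed the filter on low values only through libraries of days 3 to 7, so their count is a description. Of all genes tested, 2.34% were called, 0.928% higher and 1.41% lower. Hoxb1 lay at 0.832, 1.32 and 0.641 FPKM at day 3 and at 1.57, 7.00 and 3.61 at day 4, and rose by 1.26 (SE 0.28, limma adjusted p = 0.0041). Hoxb2 lay at 1.06, 4.91 and 5.98 FPKM at day 4, overlapping with day 3, and rose by 1.09 (SE 0.27, limma adjusted p = 0.0091). Hoxa2, which sets the identity of the second pharyngeal arch, went from 0, 0.0992 and 0.0977 FPKM to 0.384, 1.95 and 2.08 (limma adjusted p = 0.0038). In each of these genes the library of course 1 was the lowest at day 4. The count was 0 without EB day 4 replicate 2, 1 (Hoxb1) without EB day 4 replicate 3, 0 in a fit of the 2 days alone and 5 with a pseudocount of 0.1 FPKM, 3 higher and 2 lower.

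The windows before the starts of Hoxb1 and Hoxa2 are shown because both genes were among these first rises and both hold TGATNNAT, the letters of a site for a Pbx and Hox pair, in capitals. The window of Hoxb1 is chr11:96365508-96365751 (plus strand) and that of Hoxa2 is chr6:52164832-52165081 (minus strand), both in RefSeq coordinates on GRCm38.p6, and each is written 5′ to 3′ in the direction of the gene. In Hoxa2 the match lies on the opposite strand and reads ATCAATCA.
Hoxb1: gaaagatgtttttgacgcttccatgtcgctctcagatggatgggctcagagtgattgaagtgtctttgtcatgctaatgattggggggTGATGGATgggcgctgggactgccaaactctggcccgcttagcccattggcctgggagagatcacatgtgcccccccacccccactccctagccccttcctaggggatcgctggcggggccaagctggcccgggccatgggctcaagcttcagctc
Hoxa2: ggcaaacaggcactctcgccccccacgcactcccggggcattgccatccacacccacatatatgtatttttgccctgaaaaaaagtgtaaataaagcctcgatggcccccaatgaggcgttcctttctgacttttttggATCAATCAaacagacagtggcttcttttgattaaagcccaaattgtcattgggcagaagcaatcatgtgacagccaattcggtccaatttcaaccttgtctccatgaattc
The match begins 162 bases before the start in Hoxb1 and 111 bases before it in Hoxa2. RefSeq windows were at hand for 24 starts of 22 of the 38 genes. Searched on both strands over the 250 bases before each start, TGATNNAT was present in 4 of the 24 windows (Hoxa2, Hoxb1, Hoxb8 and Hoxd11), against 7.68% of 32851 windows of the same length from all genes. The DR5 direct repeat bound by retinoic acid receptors was in 0 of the 24 windows and in 3 of all windows. A match of letters is not a measured binding site.

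The step to day 5 had the most Hox genes called of all steps of 1 day. From day 4 to day 5, 12 were called higher and 0 lower, where 8.07% of all genes tested were called, 6.46% higher and 1.61% lower. They were Hoxa2, Hoxa3, Hoxa4, Hoxa5, Hoxb1, Hoxb2, Hoxb3, Hoxb4, Hoxb8, Hoxb9, Hoxd3 and Hoxd4, so that HoxD joined on this day and no HoxC gene was called. All 12 are among the 22 genes that passed the filter only through libraries of days 3 to 7. Counts in steps of 1 day are therefore descriptions and no measure of how often Hox genes rise. With a pseudocount of 0.1 FPKM 17 were called higher and 1 lower. By paralog number the 12 genes were 6 of the 7 genes of numbers 1 to 3, 5 of the 15 of numbers 4 to 8, and Hoxb9. Markers of other cell types moved with this step. The summed level of 7 primitive streak and mesoderm genes was 76.1 to 164 FPKM at day 4 and 440.2 to 693 at day 5. That of 6 endoderm genes was 29.3 to 64.0 and then 189 to 359 FPKM, and that of 5 pluripotency genes 1518 to 1545 and then 332 to 571. Their part in the Hox levels was not tested.

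Hoxb1 lay at 27.96, 28.6 and 48.6 FPKM at day 5, its highest group mean, and rose by 2.94 (SE 0.28, limma adjusted p = 1.2e-08). Hoxb2 lay at 36.9, 27.1 and 36.6 FPKM and rose by 2.96 (SE 0.27, limma adjusted p = 5.6e-09). Hoxa2 lay at 15.9, 9.51 and 14.1 FPKM and rose by 2.58 (SE 0.25, limma adjusted p = 1.5e-08). In these 3 genes every day 5 library stood above every day 4 library. Hoxa3, needed for the thymus and parathyroid, went from 0, 0.550 and 0.696 FPKM to 5.91, 4.28 and 9.94. Hoxb3 reached 2.12, 1.49 and 4.02 FPKM from at most 0.110. Hoxd3 reached 2.59, 1.52 and 3.35 FPKM and lay at 0, 0 and 0.0623 on day 4. The paralogs of number 3 thus rose on the same day in all clusters that hold one.

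The called genes of numbers 4 and 5, active from the lower hindbrain and neck downwards, were Hoxa4, Hoxa5, Hoxb4 and Hoxd4. Hoxa4 went from 0.115, 0.261 and 0.127 FPKM to 1.46, 0.859 and 3.19 (limma adjusted p = 0.0030). Hoxa5, which is needed for lung development, went from 0.397, 0.531 and 0.924 FPKM to 4.82, 3.45 and 7.76. Hoxb4 went from 0.0621, 0.0693 and 0 FPKM to 1.57, 0.619 and 2.66, and Hoxd4 from 0, 0.213 and 0.0686 to 2.02, 1.15 and 3.31. The day 5 library of course 2 was the lowest in each of the 4 genes. Without EB day 5 replicate 3, the highest library, Hoxa4 and Hoxb4 were no longer called (differences 0.87 and 0.97). In project B alone, 1 of the 2 sequencing projects, Hoxa4 was not called (limma adjusted p = 0.067, difference 1.23).

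Hoxb8 and Hoxb9, trunk genes near the far end of HoxB, were called on the same day as number 3 and ahead of the lower-numbered Hoxb5, Hoxb6 and Hoxb7. Both were listed at 0 in all 3 day 4 libraries. Hoxb8 lay at 3.38, 0.976 and 3.21 FPKM at day 5 (limma adjusted p = 0.00075) and Hoxb9 at 3.62, 1.59 and 3.61 (limma adjusted p = 0.0092). In project B alone neither was called (limma adjusted p = 0.088 and 0.15, differences 1.53 and 1.79). Hoxb5 averaged 0.380 ± 0.0972 FPKM and Hoxb6 0.316 ± 0.297 on that day (SD, n = 3), and both overlap the antisense gene Hoxb5os. Hoxb7 lay at 1.76, 0.254 and 1.17 FPKM at day 5 and at 0, 0 and 0.149 at day 4. In all of these uncalled genes every day 5 library stood above every day 4 library, so the order of calls is not an order of first rise. Of the 14 genes that came on and stayed on to day 7, the first day on was day 3 for Hoxb2, day 4 for Hoxb1, day 5 for Hoxa2, Hoxa3, Hoxa5, Hoxb3, Hoxb9, Hoxd3 and Hoxd4, day 6 for Hoxb4, Hoxb8 and Hoxc4, and day 7 for Hoxa4 and Hoxb6. Across these 14 genes, which share libraries and so are not independent, the first day on and the paralog number had a Pearson r of 0.46 and a Spearman rho of 0.62.

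The window before Hoxb8 is shown because this gene rose with the lower-numbered ones and its window holds TTTATG, the letters of a Cdx site, on both strands, beside a TGATNNAT match, all in capitals. It is chr11:96281655-96281904 on the plus strand (RefSeq, GRCm38.p6).
Hoxb8: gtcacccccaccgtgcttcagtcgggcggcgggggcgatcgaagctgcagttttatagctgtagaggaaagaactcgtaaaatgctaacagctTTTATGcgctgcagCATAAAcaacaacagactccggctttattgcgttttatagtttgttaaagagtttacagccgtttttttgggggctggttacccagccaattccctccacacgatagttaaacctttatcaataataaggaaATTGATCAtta
The letters TTTATG, searched on both strands, were in 5 of the 24 Hox windows (Hoxa7, Hoxb8, Hoxd3, Hoxd4 and Hoxd11), against 10.8% of all windows. Cdx2, a factor that switches on trunk Hox genes, stood at 0.845 ± 0.635 FPKM at day 4, 48.9 ± 18.01 at day 5 and 17.0 ± 3.62 at day 6 (SD, n = 3 each). The part of Cdx2 and of these letters in the Hox levels was not tested.

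From day 5 to day 6, 6 Hox genes were called, and HoxC genes were called for the first time in a step between aggregates. Hoxb3, Hoxb9, Hoxc4, Hoxc8, Hoxd3 and Hoxd4 were called higher and 0 lower, where 5.13% of all genes tested were called, 2.26% higher and 2.87% lower. All of them but Hoxc4 passed the filter only through libraries of days 3 to 7, so this count is a description. Hoxd3 lay at 7.66, 14.6 and 6.96 FPKM at day 6 and rose by 1.59 (SE 0.24, limma adjusted p = 2.2e-05). Hoxb3 lay at 7.92, 17.4 and 6.15 FPKM and rose by 1.64 (SE 0.27, limma adjusted p = 7.1e-05). In both genes the libraries of the 2 days did not overlap. Hoxd4 lay at 5.34, 11.1 and 3.99 FPKM (difference 1.26, limma adjusted p = 0.0043) and Hoxc4 at 2.43, 9.64 and 1.75 (difference 1.43, limma adjusted p = 0.0086). Hoxc8, which specifies motor neuron pools of the brachial spinal cord, lay at 1.73, 6.19 and 0.645 FPKM (difference 1.41, limma adjusted p = 0.035, and 0.052 to 0.27 under the alternatives that ended its call). Replicate 2 was the highest in every one of these genes. The count fell from 6 to 2, Hoxb3 and Hoxd3, without EB day 6 replicate 2, and to the same number without EB day 5 replicate 2, was 10 without EB day 6 replicate 3, was 3 in project B alone, and was 1 in a fit of the 2 days alone.

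From day 6 to day 7, 1 Hox gene was called, Hoxd3, which was higher, where 4.98% of all genes tested were called, 2.91% higher and 2.07% lower. Hoxd3 lay at 26.2, 19.7, 12.3, 28.1 and 29.9 FPKM at day 7 and rose by 1.18 (SE 0.21, limma adjusted p = 0.00018), with its lowest day 7 library below the highest of day 6. The count of 1 became 7 without EB day 6 replicate 2, 3 without EB day 7 replicate 3 and 2 without EB day 7 replicate 5.

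**Figure D3:**
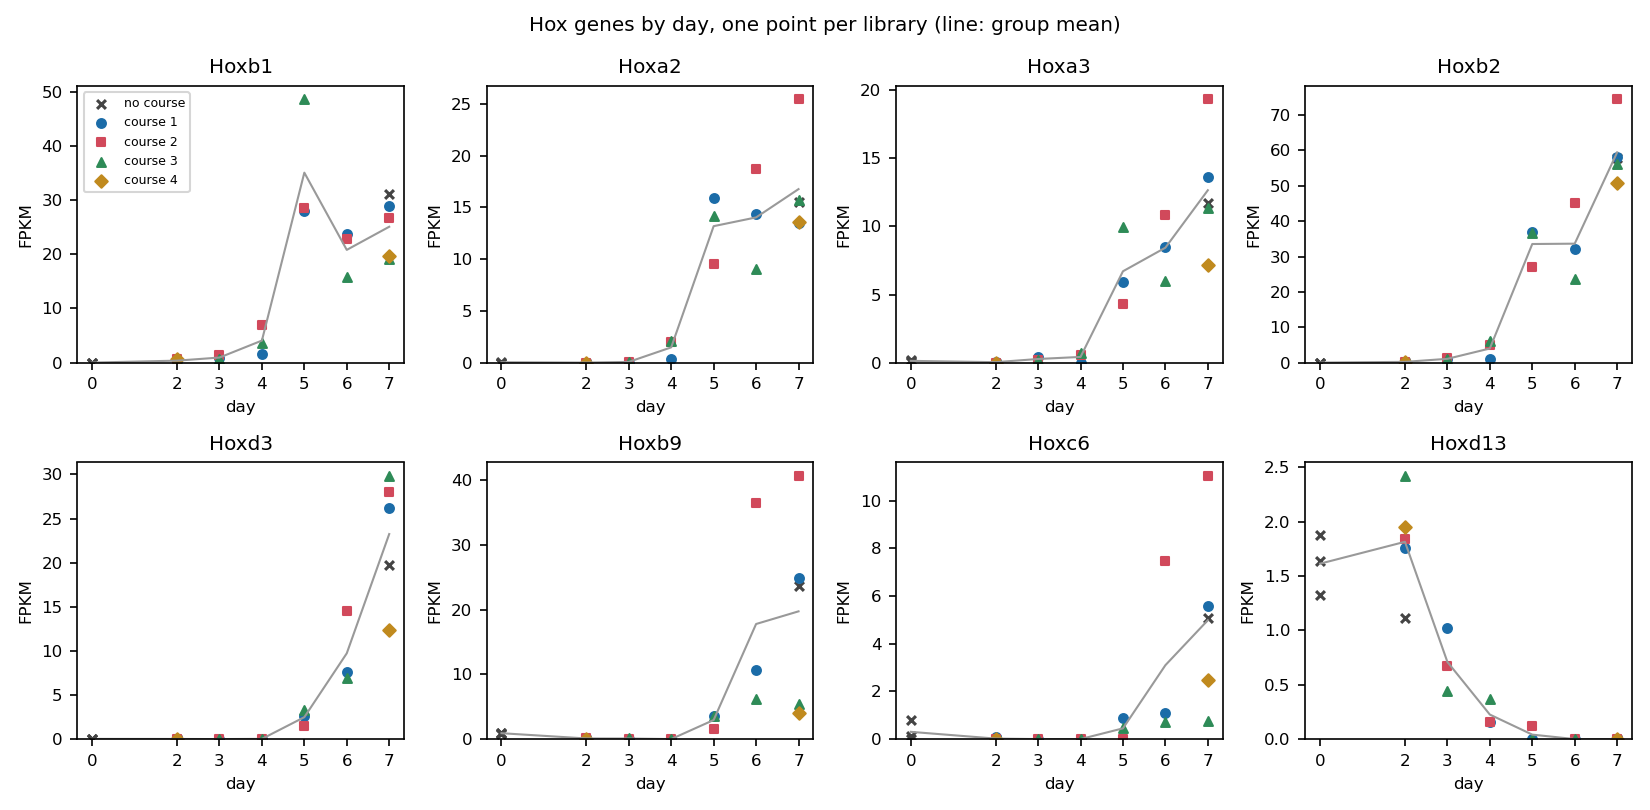
FPKM of 8 Hox genes by day from day 0 to day 7, one point per library, marked by culture course, with a line through the group means. Hoxb1 has its highest mean at day 5, Hoxd3 rises to day 7, and the points of course 2 lie highest for Hoxb9 and Hoxc6 at days 6 and 7.

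Over the whole aggregate culture, from day 2 to day 7, 20 of the 38 genes were called higher and 1 lower, where 27.2% of all genes tested were called, 15.7% higher and 11.4% lower. Of the 29 genes that passed the filter, 22 did so only through libraries of days 3 to 7, so the count describes these libraries and is no measure of how often Hox genes rise. By number, the genes called higher were 6 of the 7 genes of numbers 1 to 3, 13 of the 15 of numbers 4 to 8, Hoxb9 among the 4 of number 9, and 0 of the 12 of numbers 10 to 13. The 1 gene of numbers 1 to 3 that was not called, Hoxd1, did not pass the filter and had its highest library, 1.51 FPKM, at day 6. Hoxa9, Hoxc5 and Hoxc9 had differences of 0.83, 0.93 and 0.76, below the minimum of 1. In project B alone Hoxa6, Hoxa7 and Hoxc8 were not called (limma adjusted p = 0.071, 0.16 and 0.095). In project A alone Hoxb7 was not called (difference 0.93). The summed level of numbers 10 to 13 was at most 0.0755 FPKM in every day 7 library.

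At day 7 the highest HoxB genes were Hoxb2, at 58.1, 57.9, 50.7, 74.5 and 56.1 FPKM, Hoxb1 and Hoxb9. Hoxb1 lay at 28.8, 31.1, 19.6, 26.7 and 19.1 FPKM. The highest HoxA genes were Hoxa2, at 13.4, 15.5, 13.6, 25.4 and 15.8 FPKM, Hoxa3, at 13.7, 11.7, 7.20, 19.4 and 11.4, and Hoxa5, at 12.99, 5.89, 3.29, 13.2 and 5.80. In HoxC the highest were Hoxc4, at 7.85, 6.56, 2.51, 10.5 and 4.80 FPKM, Hoxc6, which marks brachial motor neurons, at 5.59, 5.06, 2.47, 11.1 and 0.767, and Hoxc8, at 2.60, 2.78, 0.237, 5.52 and 0.123. HoxD held Hoxd3, Hoxd4 at 12.3, 8.57, 3.94, 14.1 and 7.99 FPKM, and far below them Hoxd8, at 0.876, 0.706, 0.196, 0.936 and 0.196. HoxB supplied 58.5% to 66.1% of the summed level and HoxC 3.20% to 8.62%. Replicate 4, from course 2, was highest in all of these genes except Hoxb1 and Hoxd3.

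Relative to their means, genes of numbers 6 to 9 differed more between aggregate libraries than those of numbers 1 to 3, with numbers 4 and 5 between. Among genes with a group mean of at least 1 FPKM, the median coefficient of variation at day 6 was 0.975 for 8 genes of numbers 6 to 9 and 0.327 for 7 genes of numbers 1 to 3. At day 7 it was 0.780 for 8 genes and 0.303 for 6 genes. For 6 genes of numbers 4 and 5 it was 0.603 at day 6 and 0.478 at day 7. Levels differed too: day 7 means were 1.66 to 6.43 FPKM for numbers 6 to 9 without Hoxb9, and 12.7 to 59.5 for numbers 1 to 3. The part of level in this spread was not tested. The library of course 2 was the highest in 8 of 8 genes of numbers 6 to 9 at day 6 and in 8 of 8 at day 7, and in 12 of 13 and 9 of 12 genes of numbers 1 to 5. At day 5 it was the lowest in 3 of 3 genes of numbers 6 to 9. By course, Hoxb9 read 3.62, 10.7 and 24.9 FPKM at days 5, 6 and 7 of course 1, 1.59, 36.4 and 40.7 in course 2, and 3.61, 6.11 and 5.42 in course 3. Its day 7 library of course 4 had 4.00 FPKM and the one outside the courses 23.6. Hoxb8 lay at 5.28, 11.4 and 2.88 FPKM at day 6 and at 6.86, 6.66, 2.61, 12.97 and 3.04 at day 7. Courses 1 and 4 belong to sequencing project A and courses 2 and 3 to project B, so each project holds a high and a low course at day 7.

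The summed level of numbers 5 to 9 ran from 18.3 to 92.4 FPKM at day 6 and from 16.6 to 111 at day 7, and that of numbers 1 to 3 from 68.8 to 131 and from 115 to 202. Other gene lists moved with these libraries. The day 6 library of course 2 had a summed level of 5 pluripotency genes of 48.9 FPKM, against 111 and 120 in the other day 6 libraries, and of 6 forebrain and midbrain genes of 28.05, against 64.3 and 64.8. At day 7 the pluripotency sum was 34.2 FPKM in the course 2 library and 68.5 to 99.8 in the others, and the forebrain and midbrain sum was 17.9 against 25.1 to 45.5. The forebrain and midbrain sum rests on few genes: 2 or 3 of the 6 reached 1 FPKM in a day 6 library. At day 3, with 1 gene at or above 1 FPKM, the sum was 65.7 to 78.2, so by itself it is no measure of forebrain or midbrain cells. The 5 hindbrain genes did not set the course 2 library apart, at 75.8 FPKM within a range of 60.4 to 96.7. The part of these cell lists in the Hox levels was not tested.

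**Figure D4:**
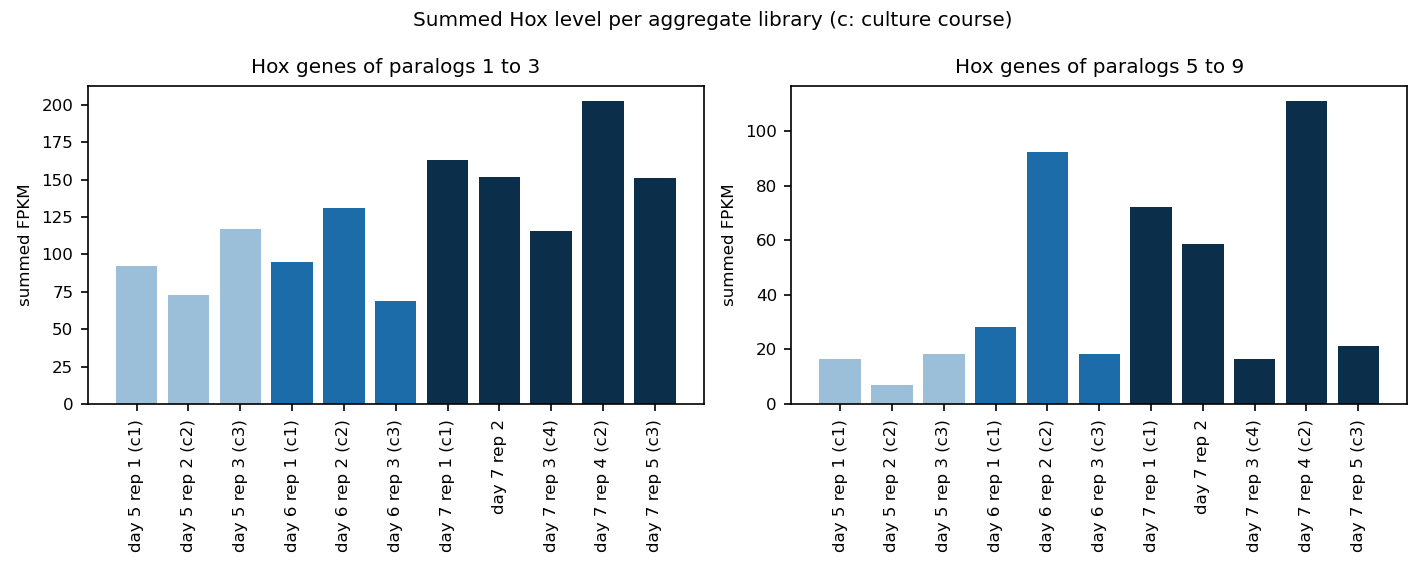
Summed FPKM per library of Hox genes of paralog numbers 1 to 3 (left) and 5 to 9 (right) in EB days 5, 6 and 7, with the culture course in brackets. The sums of numbers 1 to 3 lie between 115 and 202 at day 7, and those of numbers 5 to 9 between 16.6 and 111, highest in course 2.

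EpiSC held almost no Hox RNA. No gene was on, and the highest means were Hoxd13, at 1.02, 0.690 and 0.373 FPKM, Hoxb9, at 0.766, 0.202 and 0.928, and Hoxc6, at 0.906, 0.119 and 0.289. Against EpiLC at day 2, 0 genes were called by limma, where 19.7% of all genes tested were called, 11.2% higher and 8.56% lower. Every Hox gene but Hoxd13 had a mean below 1 FPKM in both groups, where a difference of 1 cannot be reached. The 0 is therefore a description and cannot be set against that share. Of the 29 tested, 2 had an unadjusted p under 0.05, Hoxc13 and Hoxd13, both lower in EpiSC by less than 1. Against day 7, 20 genes were lower and 0 higher, where 17.5% of all genes tested were called, 7.47% higher and 9.99% lower. Of the 29 tested, 9 passed the filter only through the day 7 libraries and 22 only through days 3 to 7, so this count too is a description. Both comparisons with the course share libraries with the comparison of days 2 and 7. With a pseudocount of 0.1 FPKM the comparison with day 2 gave 6 calls, 2 higher and 4 lower.

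The low Hox levels of EpiSC were weighted to high numbers: numbers 9 to 13 supplied 56.6% to 66.7% of the sum, against 53.0% to 67.5% in EpiLC, 68.6% to 75.6% in ESC, 58.3% to 64.5% in MEF and 2.81% to 12.7% at day 7. EpiSC were grown on fibroblasts, and fibroblast genes were present in them. The 11 fibroblast markers in the table, of 12 listed, were all at or above 1 FPKM in each EpiSC library. They summed to 365 to 583 FPKM in EpiSC, against 10341 to 14994 in MEF. In ESC their sum was 282 to 331 FPKM, with 3 of the 11 at or above 1 FPKM in each library. Col1a1 averaged 99.1 FPKM in EpiSC, 6.44 at day 7 and 0.718 at day 2. As a percentage of the MEF mean, the EpiSC means had a median of 1.89% over 35 Hox genes (0% to 4.33%) and of 4.95% over the 11 markers (2.37% to 10.6%). Replicate 1 had the highest Hox sum, 8.08 FPKM, and the highest marker sum, 583, and replicate 2 the lowest of both, 3.47 and 365. The part of fibroblast RNA in the Hox values was not tested.

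Fibroblasts had less RNA of the low paralog numbers than day 7 aggregates and more of the high ones. Against day 7, 18 genes were called higher and 8 lower, where 34.4% of all genes tested were called, 18.3% higher and 16.1% lower. All MEF fits take the 6 libraries as replicates, though passages of 1 culture are not independent. Their SE and p-values can therefore be too small. With 1 mean per MEF culture the 60 Hox calls of the 2 MEF comparisons stayed. By number, 8 of the 11 genes of numbers 1 to 4 were lower and 0 higher, 7 of the 15 of numbers 5 to 9 were higher and 0 lower, and 11 of the 12 of numbers 10 to 13 were higher and 0 lower. Of the 36 genes that passed the filter, 7 of numbers 10 to 13 (Hoxa10, Hoxa11, Hoxa13, Hoxc11, Hoxd10, Hoxd11 and Hoxd12) did so only through the MEF libraries, so that part of the count had to come out this way. Hoxb13 and Hoxd1 did not pass, with means of 0.784 and 0.0904 FPKM in MEF. Among the genes not called were Hoxb5, Hoxb8, Hoxb9 and Hoxc4, whose MEF and day 7 levels overlapped.

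The highest Hox gene of fibroblasts was Hoxd13, with 32.2 (lowest), 40.9 (median) and 55.0 (highest) FPKM over 6 libraries, while it was listed at 0 in every day 7 library. Hoxd8 lay at 13.1, 14.7 and 16.6 FPKM (lowest, median and highest, as for the genes that follow) and was higher than at day 7 by 3.35 (SE 0.14, limma adjusted p = 1.7e-19). Hoxd10, which acts in lumbar motor neurons and the limb, lay at 4.17, 5.88 and 8.33 FPKM and was listed at 0 at day 7. These 3 HoxD genes had no overlap between MEF and day 7. Hoxa10, a gene of the lumbar region, lay at 20.6, 28.2 and 29.5 FPKM. Hoxa11, of the forearm and kidney, lay at 10.2, 12.7 and 15.2 FPKM, and Hoxa13, of digits, at 7.12, 11.4 and 15.6. All 3 HoxA genes were listed at 0 in each day 7 library. In HoxC, Hoxc6 lay at 12.5, 14.5 and 18.4 FPKM, above all day 7 libraries (difference 1.66, SE 0.33, limma adjusted p = 4.6e-05). Hoxc10 lay at 9.77, 10.6 and 16.7 FPKM (difference 3.61, SE 0.09, limma adjusted p = 6.9e-25), and Hoxc8 at 8.42, 9.97 and 10.3 (difference 2.03, SE 0.31, limma adjusted p = 5.7e-07). In HoxB, Hoxb13 lay at 0.420, 0.724 and 1.52 FPKM and was listed at 0 in every day 7 library, and Hoxb9 lay at 17.5, 18.6 and 25.7 FPKM, within the day 7 range of 4.00 to 40.7 (difference 0.43, SE 0.38, limma adjusted p = 0.30).

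Of the 7 genes of numbers 1 to 3, 6 were called lower in fibroblasts than at day 7, though 5 of the 7 were on there. Hoxb1 was listed at 0 in all 6 libraries. Hoxb2 lay at 4.11, 6.52 and 8.60 FPKM and was lower by 3.00 (SE 0.20, limma adjusted p = 1.8e-14), and Hoxb6, of the trunk, lay at 5.88, 6.18 and 8.50, higher by 1.22 (SE 0.22, limma adjusted p = 1.2e-05). Hoxd3 averaged 2.53 ± 0.587 FPKM (SD, n = 6), lower than at day 7 by 2.73 on the log2 scale. Against EpiSC, 34 of the 38 genes were higher in MEF and 0 lower, where 36.2% of all genes tested were called, 20.2% higher and 16% lower. The 7 genes that passed the filter only through MEF are among the 36 tested here too.

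The window before Hoxd13 is shown as that of the highest Hox gene of fibroblasts, with its CG dinucleotides, the bases that DNA methylation acts on, in capitals. It is chr2:74667975-74668224 on the plus strand (RefSeq, GRCm38.p6).
Hoxd13: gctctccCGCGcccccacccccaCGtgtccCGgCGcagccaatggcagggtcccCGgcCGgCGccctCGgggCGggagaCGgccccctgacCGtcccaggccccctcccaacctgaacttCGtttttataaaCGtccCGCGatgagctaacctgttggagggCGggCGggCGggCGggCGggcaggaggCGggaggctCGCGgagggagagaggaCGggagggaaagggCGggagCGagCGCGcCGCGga
It holds 31 CG dinucleotides in 250 bases. The 24 Hox windows had a median of 12.5 (2 to 35), against 6 over all windows, and a median GC content of 58.6% against 52.4%. No methylation was measured in these libraries.

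**Figure D5:**
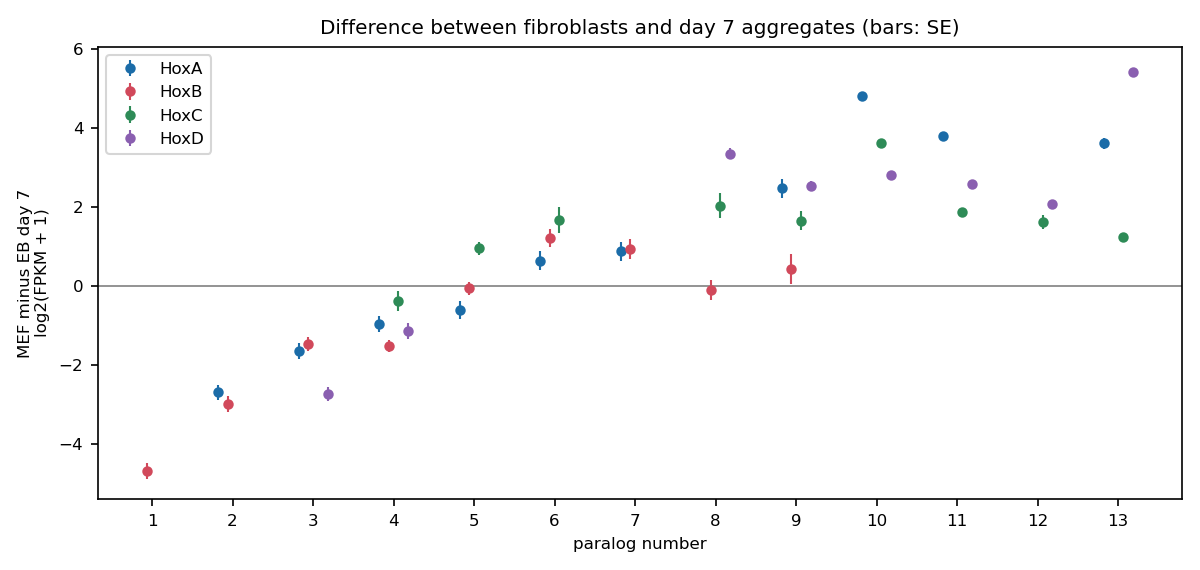
Difference between MEF and EB day 7 in log2(FPKM + 1) for the 36 Hox genes that passed the filter, by paralog number and coloured by cluster, with bars for the standard error. Points of numbers 1 to 3 lie below 0 and those of numbers 10 to 13 above it, and Hoxb5 and Hoxb8 lie closest to 0.

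Between the 2 fibroblast cultures, no Hox gene differed by 1 or more, and the largest difference was -0.64, in Hoxa3. With 3 passages of a culture counted as 1 sample there is no test. No Hox gene both differed by at least 1 and had no overlap between the cultures, as 0.144% of 11831 genes did. At so low a share, 0 among 38 genes says little. Without overlap were 7 of the 38 Hox genes, a larger share than the 6.44% of all genes. Hoxa3 was among the 7, with 4.24 FPKM in culture 1 and 2.40 in culture 2. From passage 0 to passage 2, 10 Hox genes went up in both cultures and 9 went down in both, and none moved by 1 or more in both. Of 11831 genes, 3440 went up in both, 3827 down in both, and 34 moved by 1 or more in both.

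Of 30 other entries within 100 kb of a cluster, 12 passed the filter, and 7 were called higher and 0 lower between days 2 and 7, where 15.7% of all genes were higher and 11.4% lower. Hotairm1, a long noncoding RNA at the low-numbered end of HoxA, rose from 4.24 ± 3.29 FPKM at day 2 (SD, n = 5) to 59.4 ± 19.6 at day 7 (n = 5; difference 3.81, SE 0.38, limma adjusted p = 2.2e-09), and was 13.5 in MEF. Halr1, another noncoding RNA of that end, went from 1.49 to 13.7 FPKM and to 0.0702 in MEF. Every day 2 library had Hoxb5os listed at 0, and at day 7 it averaged 21.7 FPKM. Hoxa11os was listed at 0 at day 7 and reached 11.4 FPKM in MEF, next to Hoxa11. Mtx2, a mitochondrial gene that flanks HoxD, was not called in either comparison, at 55.3, 47.8 and 47.0 FPKM at day 2, day 7 and in MEF. Evx1, a homeobox gene past Hoxa13, averaged 3.799 FPKM at day 5 and 0.326 and 0.156 on the days before and after.

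Of 24 cofactors and regulators of Hox genes listed, 12 were called higher and 1 lower between days 2 and 7, against the same 15.7% and 11.4% of all genes. The partners Meis1 and Meis2 rose from 0.0548 and 0.261 FPKM to 27.6 and 33.7 (differences 4.75 and 4.78). Rarb, a retinoic acid receptor, rose by 4.02 and was first called between days 5 and 6, from 0.379 ± 0.0757 FPKM to 14.05 ± 2.32 (SD, n = 3 each). Aldh1a2, which makes retinoic acid, reached 7.56 ± 6.62 FPKM at day 5 and 62.3 ± 6.34 at day 6, and Cyp26a1, which degrades it, rose by 4.25 between days 2 and 7. Rarg, another receptor, fell by 2.50. In MEF against day 7, where 18.3% of all genes were higher and 16.1% lower, 1 of the 24 was higher and 11 were lower, Rarb, Cyp26a1 and the Polycomb methyltransferase Ezh2 among them.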

How the data were processed

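The 34 mouse libraries were prepared with TruSeq Stranded mRNA reagents from total RNA, per the labels' protocols. The authors deposited FPKM per gene. Cufflinks 2.2.1, Cuffdiff, HISAT2 2.0.4, cutadapt 1.4.1 and the build mm9 are named in the submitters' processing notes. Their settings and the use of strand are not given in the sources used here. Depth was unknown. Relative depth, read from the steps of values up to 0.15 FPKM (tolerance 0.04 on the log2 scale), ran from 0.853 to 1.19 times the median library. The smallest value above 0 of a Hox gene had a median of 0.0906 FPKM, and an exact 0 can be a failed estimate, so no fold is given against a group at 0.

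Genes had to reach 1 FPKM in at least 3 of the libraries fitted. A pseudocount of 1 FPKM was added before log2, which understates the change of low genes. limma 3.58.1 in R 4.3.3 (trended empirical Bayes) was fitted on 14009 genes of 28 libraries without MEF (29 Hox genes described) and, for MEF comparisons, on 14595 genes of 34 libraries (36 Hox genes described). All printed p-values are from these fits, and the MEF fits take the 6 libraries of 2 cultures as replicates. The fits were tested on simulated data. Groups followed titles and source names. Values in every library are given for the 3 highest Hox genes of each cluster at day 7 and in MEF, the 3 highest in EpiSC, and genes called in a step of 1 day. Of 39 Hox genes, 1 is not reported here; it was fitted with all genes and enters no count, sum or figure of Hox genes. Hox genes and lists were chosen with earlier results of these data known.

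The alternatives were other pseudocounts, filters and scalings, fits of 2 groups, each project alone or as a covariate, no minimum difference, means per MEF culture, blocks by replicate number or culture course, each library left out, and, chosen after seeing the data, the libraries of the 4 courses without the block. Promoter windows are RefSeq entries on GRCm38.p6, cut to the 250 bases before the start, and that of Hoxb1 was shortened where GENCODE vM21 annotates an exon. No mm9 coordinate was joined with them.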

Additional observations from a re-analysis of the deposited data

Results flagged for a closer look

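Each Hox gene was checked in each group of at least 4 libraries where its mean reached 1 FPKM, which gave 56 pairs. In 3 of the 56 pairs 1 library lay far from the rest by Dixon's criterion. Chance alone gives this in about 1 of 20 independent sets. The pairs share libraries, and MEF libraries are passages of 2 cultures, so that rate is only a guide. Hoxa2 at day 7 was highest in replicate 4, of course 2, at 25.4 FPKM, with the other 4 libraries between 13.4 and 15.8. Hoxb6 in MEF was highest in replicate 3 (culture 1, passage 1) at 8.50 FPKM, and Hoxc10 in MEF in replicate 4 (culture 2, passage 1) at 16.7 FPKM.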

How the results depend on the processing

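No called difference of a Hox gene changed sign under the alternatives run. With a pseudocount of 0.1 FPKM the calls numbered 14 between days 0 and 2 (2 of them higher), 5 between days 2 and 3, 5 between days 3 and 4 (2 of them lower), 2 between days 6 and 7, and 6 between EpiSC and day 2. With a filter at 5 FPKM they were 2 between days 0 and 2, 13 between days 2 and 7, and 13 between EpiSC and day 7. Fits of the 2 groups alone gave 0 calls for day 4 against day 3 and 1 for day 6 against day 5. In such fits Hoxa6, Hoxa7 and Hoxc8 lost their call between EpiSC and day 7. Project B alone gave 1 call between days 2 and 3, 3 between days 5 and 6, and 2 between days 6 and 7. There Hoxa4, Hoxb8 and Hoxb9 lost their call between days 4 and 5, and Hoxa6, Hoxa7 and Hoxc8 between days 2 and 7. Between EpiSC and day 7 project B alone lost Hoxa6, Hoxa7, Hoxc6 and Hoxc8. Project A alone lost Hoxb7 between days 2 and 7 and Hoxd4 between MEF and day 7. Quantile normalization lost Hoxa7 between days 2 and 7, and Hoxa7 and Hoxc8 between EpiSC and day 7. Without a minimum difference the calls were 2 between days 2 and 3, 7 between days 6 and 7, 2 between EpiSC and day 2, and 7 between the MEF cultures by no overlap alone. The number of genes on was 2 at day 3 at a limit of 0.5 FPKM and, at 2 FPKM, 3 in ESC, 0 in EpiLC, 0 at day 3, 0 at day 4 and 5 at day 5. Leaving out each library in turn gave 0 to 3 calls between days 3 and 4, 10 to 13 between days 4 and 5, 2 to 10 between days 5 and 6, 1 to 7 between days 6 and 7, 20 to 23 between days 2 and 7, 17 to 21 between EpiSC and day 7, 26 to 28 between MEF and day 7, and 34 to 35 between MEF and EpiSC. It left 6 between days 0 and 2, and 0 between days 2 and 3, between EpiSC and day 2 and between the MEF cultures. The cause was not tested.

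A replicate block by replicate number changed no call of a Hox gene. A block by culture course gave 3 calls between days 6 and 7 in place of 1, and Hoxc8 lost its call between days 5 and 6, as it did in the 4 courses without the block, an alternative chosen after seeing the data. Deviations of same-course libraries from their group means had a median correlation of -0.045 (-0.32 to 0.30, 18 pairs), so the numbers were not taken to pair the libraries. Levels under about 0.1 FPKM rest on few fragments, and absence cannot be told from low expression there.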
